A study of Mus musculus with 4 samples.

Results

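RNA levels were compared between input RNA of mouse embryonic stem cells transfected with FLAG-tagged mutant Dis3l2 and input RNA of mock-transfected cells, with 1 library from each. All 2106 features that held at least 50 reads summed over both inputs were taken, of 21443 features listed in 2 tables, whatever their difference between the cells. The mRNA table gave 1058 of its 16470 symbols (6.42%), and 1048 of 4973 symbols (21.1%) came from the noncoding table. As 72 symbols stood in both tables, the features covered 2034 distinct symbols. The minimum left 816 features of the mRNA table and 993 of the noncoding table with at least 25 reads in each library, and 0 features of either table had 0 reads in a library.

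The cells of both groups were of the C57BL/6 strain at passages 25 to 30. They had been adapted to gelatin without feeder cells and were kept in serum with LIF, the cytokine that holds these cells in the self-renewing state. The labels give no change to the cells' own Dis3l2 gene and do not name the mutation carried by the transfected protein. RNA was taken without immunoprecipitation and passed through RiboMinus selection, which depletes ribosomal RNA. The series also holds 1 immunoprecipitate (IP) on anti-FLAG gel from each of the same conditions, used below only beside the inputs. Each group is 1 library, so no p-value is given and no difference has a replicate check. The 95% intervals of ratios are exact conditional binomial intervals that cover counting error only. In bulk RNA, fewer cells of a type and less RNA per cell cannot be told apart.

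Dis3l2 is a cytoplasmic exoribonuclease that degrades RNA from the 3′ end and prefers ends to which uridines have been added. In embryonic stem cells it is known for degrading uridylated let-7 precursors marked through Lin28, and in several systems for surveillance of aberrant structured noncoding RNAs, among them 7SL, snRNAs, RNase P and RNase MRP RNA and misprocessed ribosomal RNA. A catalytically inactive form has been used elsewhere to hold such RNAs for identification. U1 snRNA, H/ACA snoRNAs and 5S rRNA, all measured here, are short, highly structured and made in the nucleus.

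Some sequences are shown first. The promoters of the higher members Olfr613, A130077B15Rik and Zfp488 (olfactory receptor gene, long noncoding RNA and zinc finger gene) are shown because these RNAs had many reads and ratios near 3. The windows are the 250 bases before the start site, from RefSeq on GRCm38.p6, at chr7:103550118-103550367 on the plus strand for Olfr613, chr10:122569892-122570141 on the minus strand for A130077B15Rik and chr14:33978765-33979014 on the minus strand for Zfp488. Each is written 5′ to 3′. Capitals mark stretches of 20 bases that occur, on either strand, in the windows of at least 10 other genes.
Olfr613: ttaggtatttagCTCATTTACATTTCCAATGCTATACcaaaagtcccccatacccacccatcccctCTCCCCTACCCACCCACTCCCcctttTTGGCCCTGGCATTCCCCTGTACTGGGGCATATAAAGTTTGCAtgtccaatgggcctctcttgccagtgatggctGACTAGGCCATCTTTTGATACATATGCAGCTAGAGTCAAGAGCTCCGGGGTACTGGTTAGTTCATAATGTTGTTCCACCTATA
A130077B15Rik: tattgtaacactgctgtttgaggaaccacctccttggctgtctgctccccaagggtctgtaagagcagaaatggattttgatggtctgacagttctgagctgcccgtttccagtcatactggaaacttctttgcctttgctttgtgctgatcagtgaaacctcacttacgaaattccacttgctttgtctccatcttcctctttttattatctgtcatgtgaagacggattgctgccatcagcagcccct
Zfp488: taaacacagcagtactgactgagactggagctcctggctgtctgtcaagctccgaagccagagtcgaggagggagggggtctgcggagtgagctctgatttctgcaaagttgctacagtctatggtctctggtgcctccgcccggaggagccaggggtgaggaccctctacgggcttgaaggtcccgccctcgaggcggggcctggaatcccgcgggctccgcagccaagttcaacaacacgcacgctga
The Olfr613 window had 172 such bases, with a stretch found in the windows of 29 other genes, and the other windows had 0. Such recurring stretches were in the windows (250 bases before to 50 after the start) of 9.22% of 27025 genes. They were in 12 of 163 mRNA-table members at least 2-fold higher (7.36%) and 33 of 565 within 2-fold (5.84%), and in 4 of 30 higher noncoding members (13.3%) and 20 of 244 within 2-fold (8.20%). Most of the higher members thus had no stretch of this kind.

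Mature sequences of the miRNA genes among the members are shown because let-7 and other miRNAs are the best-known RNAs of the Dis3l2 pathway in these cells. They are from RefSeq on GRCm38.p6, with the seed, bases 2 to 8, in capitals.
mmu-miR-1843b-5p: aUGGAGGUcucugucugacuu
mmu-miR-1843b-3p: cCGAUCGUuccccuccauac
mmu-miR-6516-5p: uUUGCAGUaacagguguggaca
mmu-miR-6516-3p: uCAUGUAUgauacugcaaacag
mmu-miR-3069-3p: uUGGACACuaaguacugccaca
mmu-miR-3069-5p: uUGGCAGUcaagauauuguuuagc
mmu-miR-6236: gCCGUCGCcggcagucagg
mmu-miR-6240: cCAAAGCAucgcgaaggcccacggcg
mmu-miR-3068-3p: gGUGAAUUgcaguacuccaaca
mmu-miR-3068-5p: uUGGAGUUcaugcaaguucuaacc
These 10 sequences of 6 genes held 10 distinct seeds, so that 0 seeds were shared. The seventh miRNA gene, Mir1949, is named only. The reads were assigned to whole miRNA genes, and their levels are given further on.

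Ratios below are deposited mutant values over deposited mock values. The deposited values are reads divided by 1.8 in the mutant input and 2.5 in the mock input, which alone gives a ratio of 1.39 to a feature with equal reads. The median ratio was 1.35 in each table, 0.43 on the log2 scale for the mRNA table and 0.44 for the noncoding table. The typical feature thus had nearly equal reads in both libraries, with quartiles of the log2 ratio at 0.02 and 0.93 in the mRNA table and 0.16 and 0.74 in the noncoding table. Centred values, with the median of the table set to 0 on the log2 scale, are given beside the ratios where they matter. Among the 1058 mRNA-table features, 237 (22.4%) lay at 2-fold or more above the mock input and 38 (3.59%) at 2-fold or more below it. After centring these were 108 (10.2%) and 79 (7.47%). Among the 1048 noncoding features, 137 (13.1%) lay above by this much and 49 (4.68%) below, and after centring 41 (3.91%) and 58 (5.53%).

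**Figure D1:**
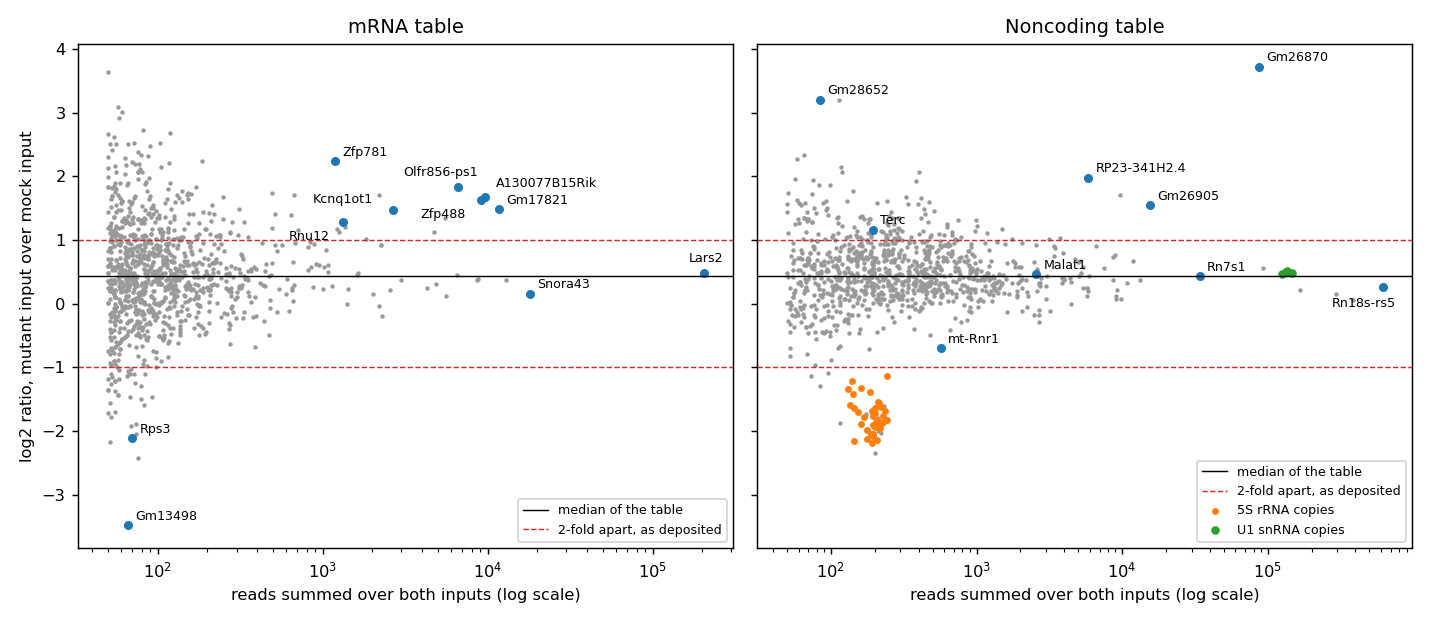
Log2 ratio of mutant over mock input (y axis, deposited values) against the reads summed over both inputs (x axis, log scale), 1 point per feature, for the mRNA table (left) and the noncoding table (right). The solid line is the table's median and the dashed lines mark 2-fold. In the mRNA table the spread is widest at the left. In the noncoding table the 5S rRNA copies form a separate cloud at a median of -1.77, and Gm26870 stands alone at 3.72 with 86642 reads.

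The spread was widest at low depth in the mRNA table, where the SD of log2 ratios over features was 0.93 at 50 to 99 reads, 0.49 from 300 to below 1000 and 0.60 from 1000 upward. The mRNA table held 307324 reads in the mutant input and 291175 in the mock input, against 2746737 and 2738512 in the noncoding table. The interval of a feature held the median ratio of its table for 62.3% of mRNA-table features with 50 to 99 reads and 23.1% of those with at least 1000. In the noncoding table these shares were 69.2% and 28.7%. All 38 lower calls of the mRNA table came from features with 50 to 99 reads. At 300 reads or more, 24 of 114 mRNA-table features were past 2-fold upward and 0 downward, and 41 of 459 noncoding features were upward and 0 downward. After centring these counts were 10 upward and 1 downward in the mRNA table, and 13 and 1 in the noncoding table. Features just inside the minimum, with 50 to 54 reads, had a median log2 ratio of 0.37 in the mRNA table (101 features) and 0.01 in the noncoding table (19). Those just outside it, with 45 to 49 reads, had medians of 0.57 (136) and 0.50 (42).

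Among RNAs with at least 300 reads the largest ratio was that of Gm26870, a predicted noncoding RNA. It had 78364 reads in the mutant input and 8278 in the mock input, a ratio of 13.1 (95% interval 12.9 to 13.5), or 9.73-fold after centring. It took 2.85% of noncoding reads in the mutant input and 0.302% in the mock input. Its other transcripts gave close ratios, 12.8 for each, from 47003 and 5103 reads and from 38674 and 4204 reads. They overlap in name and may share reads, so they are no separate observations. In the IPs the gene had 67 reads (mutant) and 56 (mock), a ratio of 1.11. The difference was thus present in the inputs and not seen between the IPs.

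Below Gm26870, a group of RNAs with many reads lay near 3-fold. The clone-named noncoding RNA RP23-341H2.4 had 4321 reads (mutant) and 1522 (mock), giving a ratio of 3.94 (3.72 to 4.18). Gm26905 had 10480 and 5002, giving 2.91. Both stayed at least 2-fold higher after centring. In the mRNA table the receptor pseudogene Olfr856-ps1 had 4729 and 1838 reads (3.57), A130077B15Rik had 6735 and 2917 (3.21), Zfp488 had 6319 and 2845 (3.08) and the pseudogene Gm17821 had 7810 and 3880 (2.80). These 4 also stayed past 2-fold after centring. Olfr613, whose promoter is printed above, had 3563 and 1941 reads (2.55), and after centring its log2 value was 0.92. Of these, Gm26905 and Olfr613 were chosen after their values were seen.

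Other RNAs with at least 300 reads at 2-fold or more were also picked after their values were seen. Zfp781, a zinc finger gene, had 913 reads in the mutant input and 269 in the mock input, a ratio of 4.71 (4.11 to 5.42). A730017L22Rik had 1530 and 649 reads (3.27), H2-Q4, a class Ib histocompatibility gene, had 346 and 145 (3.31), and Grk1, the rhodopsin kinase of photoreceptors, had 468 and 200 (3.25). All 4 were past 2-fold after centring. Ifnar1, a subunit of the type I interferon receptor, had 433 and 270 reads (2.23), and Ccdc82 had 762 and 486 (2.18). Those 2 were within 2-fold after centring. Chemosensory receptor genes of the Olfr and Vmn families, a group also chosen after its values were seen, counted 103 in the table, of which 5 were members and 4 at least 2-fold higher (22.4% of the table), 2 of them after centring (10.2%). Vmn1r58 had 1082 and 747 reads (2.01) and Vmn1r65 had 38 and 29 (1.82). These receptors belong to sensory neurons, and which part of each gene the reads cover cannot be read from the tables.

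At the other end, the lower noncoding features were almost all 5S rRNA, the small RNA of the large ribosomal subunit. Of 69 named 5S copies 37 were members, and 37 of 37 were at least 2-fold lower in the mutant input (the table's background is 4.68%), with a median log2 ratio of -1.77, or -2.20 after centring. Rn5s had 34 reads in the mutant input and 161 in the mock input, a ratio of 0.293 (0.196 to 0.427). The members ran from n-R5s143 with 26 and 164 reads (0.220) to n-R5s113 with 60 and 184 (0.453). Their mock reads alone, 102 to 203 a copy, put all 37 past the minimum, against 20 to 60 in the mutant input. Copies are thus members mainly through the library in which they are high. With 7 further features that RefSeq classes as rRNA and that are not mitochondrial, 44 of 44 lay between 0.220 and 0.453. The 69 copies summed to 1267 reads in the mutant input and 5990 in the mock input. The copies are near identical and can share reads, so they count as 1 RNA measured many times.

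Only 5 of the 49 lower noncoding features were outside that class, and 2 of them had counts like the 5S copies. Gm23647, which RefSeq classes as a pseudogene, had 25 and 177 reads (0.196, interval 0.124 to 0.299), and Gm24089 had 31 and 143 (0.301). The other 3 were shallower: BC028777 with 19 and 65 reads (0.406), 2010110E17Rik with 18 and 55 (0.455) and Gm22728, a guide RNA by RefSeq's class, with 24 and 71 (0.469). Gm24089, BC028777, 2010110E17Rik and Gm22728 were chosen after their values were seen.

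The other rRNA features leaned the same way by less. A group of 8 noncoding features that are rRNA or are known to gather rRNA reads was formed after their values were seen. In it 8 of 8 lay below the noncoding median and 3 of 8 below a ratio of 1, while Lars2 of the mRNA table, which is also known to gather such reads, lay just above its table's median (0.06 after centring). Rn18s-rs5, an 18S-related sequence that RefSeq classes as a pseudogene, had 284824 and 331483 reads, a ratio of 1.19. Gm42418 had 166199 and 221265 (1.04), Gm26917 had 130825 and 163866 (1.11) and AY036118 had 75549 and 90962 (1.15). The mitochondrial rRNAs, which have their own genes in the organelle, were lower: mt-Rnr2 had 823 and 1240 reads (0.922) and mt-Rnr1 had 174 and 394 (0.613, interval 0.510 to 0.735). Centred on the median, mt-Rnr1 was 2-fold lower at -1.14. Several of the 8 noncoding features may gather reads of the same rRNA, so they are not 8 separate observations. Both inputs had been depleted of rRNA. The part of the depletion step in these ratios was not tested.

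**Figure D2:**
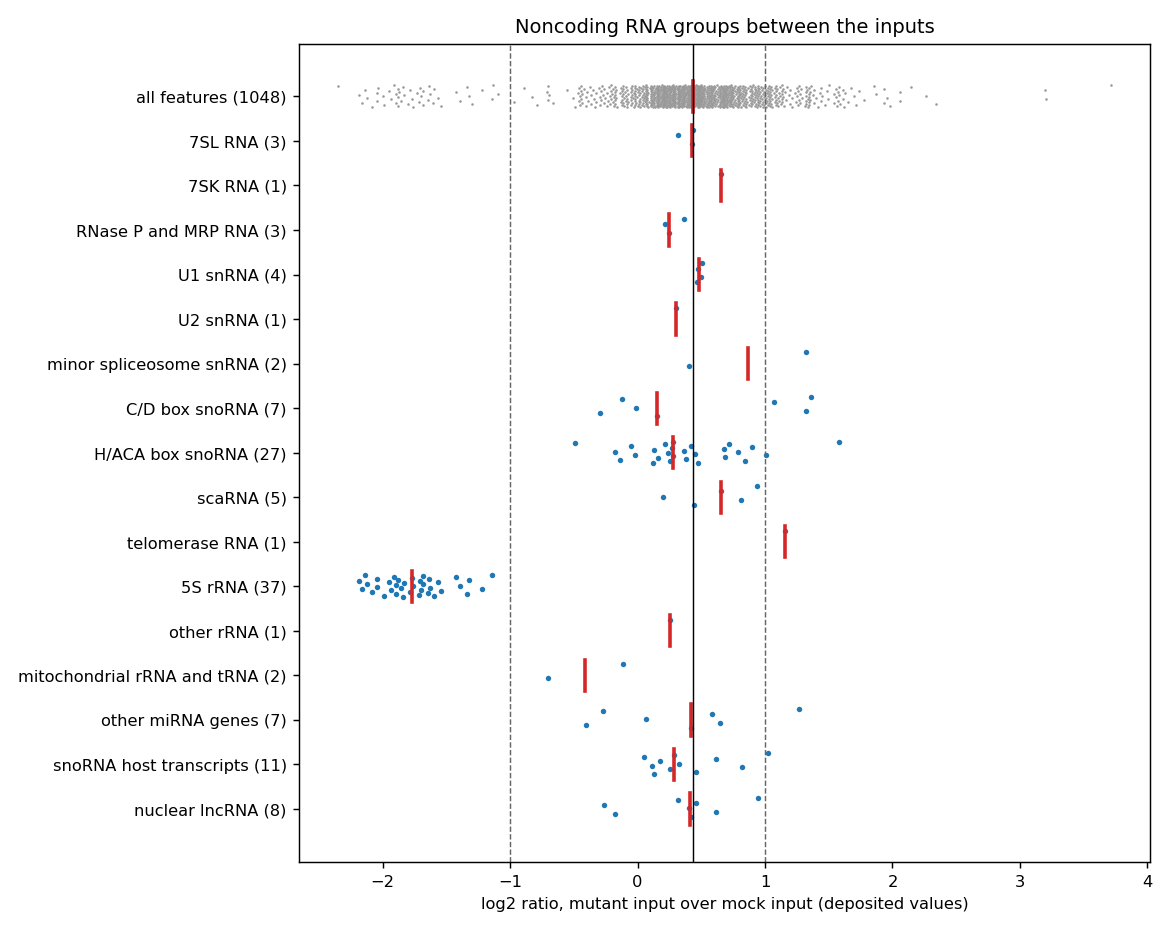
Log2 ratio of mutant over mock input (x axis, deposited values) for each feature of the noncoding groups, with the number of members in brackets. Red bars are group medians, the solid line is the median of all 1048 features and the dashed lines mark 2-fold. The 37 5S rRNA copies lie between -2.18 and -1.14, while the U1 copies sit just above the median line and the 7SL, RNase P and MRP RNAs just below it.

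U1 snRNA, which pairs with 5′ splice sites, held much of the noncoding table and was nearly equal in both inputs. Rnu1a1 had 73280 reads in the mutant input and 73252 in the mock input, a ratio of 1.39, and Rnu1b1, Rnu1b2 and Rnu1b6 gave 1.42, 1.41 and 1.38. In all 20 features had reads within 20% of those of Rnu1a1, 18 of them classed as snRNA. They took 51.4% of noncoding reads in the mutant input and 51.1% in the mock input, with ratios from 1.38 to 1.43. These 20 features had similar counts and can share reads, so they are not 20 separate observations. If a read was counted at several copies, these shares overstate U1. How such reads were handled was not stated. Rnu2-10, a U2 snRNA that pairs with the branch site, had 1267 and 1428 reads (1.23). The minor spliceosome, which removes a rare class of introns, gave unequal values. Rnu11 had 2138 and 2239 reads (1.33), whereas Rnu12 had 476 and 265 reads, a ratio of 2.49 (2.14 to 2.91) and 0.88 after centring. The RefSeq transcript of Rnu12 in the mRNA table, with 848 and 485 reads, gave 2.43. Gm24525, classed as snRNA and chosen after its values were seen, had 394 and 231 reads (2.37). U4, U5 and U6 had 0 of 2 listed features with enough reads.

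Other structured RNAs of the nucleus and cytoplasm stayed close to the median. The 7SL RNAs, scaffolds of the particle that brings ribosomes to the endoplasmic reticulum, had 16801 and 17358 reads for Rn7s1 (1.34), 16526 and 16983 for Rn7s2 (1.35) and 5096 and 5688 for Rn7s6 (1.24). Rn7sk, which restrains elongation by RNA polymerase II, had 138 and 122 reads (1.57, interval 1.22 to 2.02). Rpph1, the RNase P RNA that cuts tRNA precursors, had 4144 and 4475 reads (1.29), and Rmrp, the RNase MRP RNA that cuts pre-rRNA, had 2499 and 2922 (1.19). After centring, Rn7s1, Rpph1 and Rmrp were at -0.01, -0.07 and -0.19 on the log2 scale. Terc, the template RNA of telomerase, was higher, with 119 and 74 reads, a ratio of 2.23 (1.66 to 3.03) and 0.72 after centring. Both Y RNAs had 0 reads in both inputs, and the vault RNA Vaultrc5 had 11 and 6.

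The H/ACA box snoRNAs, which guide pseudouridylation, had 27 of 38 as members. Of these 2 were past 2-fold upward and 0 downward (13.1% and 4.68% over the table). The median log2 ratio was 0.28 against 0.44 for the table, and 17 of 27 lay below the table's median. Those with most reads were Snora64 with 6389 and 6877 reads (1.29) and Snora43 with 4175 and 5003 (1.16). Snora33 was lowest, with 163 and 318 reads (0.712). Snora3 was highest, with 142 and 66 reads, a ratio of 2.99 (2.22 to 4.06), and it alone of these snoRNAs stayed past 2-fold after centring. Snora16a had 172 and 119 reads (2.01).

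The C/D box snoRNAs, which guide ribose methylation or cut pre-rRNA, had 7 of 27 as members, 3 of them past 2-fold upward and 0 downward (13.1% and 4.68% over the table), around a median of 0.15. Those higher were Snord15a with 72 and 39 reads (2.56), Snord17 with 45 and 25 (2.5) and Rnu3a with 62 and 41 (2.10), all within 2-fold after centring. Rnu3a is a copy of U3, which is needed for early cuts in pre-rRNA, and the other U3 copies did not share its ratio. Rnu3b1, Rnu3b2, Rnu3b3 and Rnu3b4 had between 100 and 129 reads in the mutant input and 155 to 181 in the mock input, with ratios from 0.817 to 1.11. The 5 scaRNAs, which guide modification of snRNAs in Cajal bodies, had 0 members past 2-fold (13.1% upward and 4.68% downward over the table). Their median was 0.65, from Scarna8 with 1172 and 1414 reads (1.15) to Scarna3a with 139 and 101 (1.91).

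Transcripts that carry snoRNAs in their introns were compared with their snoRNAs, as reads of an intron can fall to either where the annotation overlaps. Of 16 host transcripts 11 were members, with 1 past 2-fold upward and 0 downward (13.1% and 4.68% over the table). Their median was 0.29. Snhg3 had 1876 and 1284 reads (2.03, interval 1.89 to 2.18), and the snoRNAs it hosts, Snora73a with 1951 and 1453 (1.86) and Snora73b with 2191 and 1763 (1.73), were also above the median. Snhg7 had 3951 and 5064 reads (1.08), close to Snora43 and to Snora17 with 2531 and 3222 (1.09), which lie within it. Dancr had 491 and 386 reads (1.77) and its Snora26 had 305 and 236 (1.79). In the mRNA table their counts were nearly the same, 1305 and 960 for Dancr and 1305 and 956 for Snora26. In these 3 hosts the transcript and its snoRNAs gave like ratios, which reads counted for both would give in any case. Snhg12, with 689 and 783 reads (1.22), did not share this: its Snora16a had 172 and 119 reads (2.01), Snora44 had 759 and 771 (1.37) and Snora61 had 101 and 142 (0.988). Rpl27a, the coding host of Snora3, went the other way, with 11 and 58 reads (0.263). Snora26, Dancr, Snora33, Snora44 and Snora61 were chosen after their values were seen.

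Of 83 miRNA genes other than let-7, 7 were members, with 1 past 2-fold upward and 0 downward (13.1% and 4.68% over the table). Their median log2 ratio was 0.42, near that of the table. Mir1843b had 71 reads in the mutant input and 41 in the mock input, a ratio of 2.41 (1.61 to 3.62), and 0.83 after centring. Mir6516 had 284 and 252 reads (1.57), Mir3069 had 285 and 264 (1.5) and Mir1949 had 221 and 230 (1.33). Mir3068, named because its sequence is printed above, had 46 and 77 (0.830). Mir6236 with 3878 and 5131 reads (1.05) and Mir6240 with 56 and 103 (0.755) gather rRNA reads and are counted with the rRNA features above. The 1 let-7 gene listed had 0 reads in both inputs, so the best-known substrate of Dis3l2 could not be compared.

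Nuclear long noncoding RNAs had 8 of 18 as members, with 0 past 2-fold (13.1% upward and 4.68% downward over the table). Their median was 0.41. Malat1, a component of nuclear speckles, had 1284 and 1296 reads (1.38, interval 1.27 to 1.49), and Neat1, which builds paraspeckles, had 395 and 411 (1.34). Rian, of the imprinted Dlk1 to Dio3 region, was the highest, with 161 and 116 reads (1.93). Xist had 30 and 47 reads (0.887, interval 0.541 to 1.43) and was chosen after its values were seen. Kcnq1ot1, the imprinted antisense RNA of the Kcnq1 region, differed in ratio between the transcripts counted. Its Ensembl transcript had 1349 and 1414 reads (1.33), and its RefSeq transcript had 1763 and 889 reads, a ratio of 2.75 (2.54 to 2.99).

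That gene was 1 of 9 with a log2 difference over 1 between the tables. For the 72 symbols that were members in both, the median absolute log2 difference between tables was 0.10, and 46 differed by under 0.2. The 9 included Gm16287, with a ratio of 8.51 from 49 and 8 reads in the mRNA table and 1.67 from 462 and 384 reads in the noncoding table. They also included 4933404O12Rik, with 0.187 from 9 and 67 reads against 1.16 from 122 and 146, and A730017L22Rik, with 3.27 against 0.988 from 32 and 45 reads. In these genes the ratio differed between the transcripts counted in the 2 tables. Several of these ratios rested on few reads, and the reason for the difference was not tested. The 72 pairs come from the same libraries and are not replicates.

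Dis3l2 itself was below the minimum. It had 7 reads in the mutant input and 3 in the mock input, a ratio of 3.24 with an interval from 0.740 to 19.4, so a rise of the transfected gene was not detectable at this depth. Dis3l2, the uridylating enzymes and Lin28 gave 0 members of 12 in the table, with 55 and 66 reads in all. Among these, Zcchc6, a terminal uridylyltransferase, had 18 and 20 reads, and Zcchc11, its relative, had 4 and 7. Of 62 other RNA decay genes 3 were members, with 0 past 2-fold (22.4% upward and 3.59% downward over the table). Exosc2, Pabpc1 and Zfc3h1 gave ratios of 1.39, 1.22 and 0.972.

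The labelled cell type was checked on its markers, at low depth. Pou5f1, the core pluripotency factor, had 48 reads in the mutant input and 62 in the mock input (1.08, interval 0.722 to 1.59). Of 41 pluripotency genes 5 were members, with 0 past 2-fold as deposited (22.4% upward and 3.59% downward over the table). After centring 0 were past 2-fold too (10.2% and 7.47% over the table). Their median log2 ratio was 0.10, and 4 of 5 lay below the table's median. Gdf3 had 64 and 50 reads (1.78), Tet1 had 77 and 94 (1.14), Trim28 had 38 and 70 (0.754) and Zfp42 had 21 and 42 (0.694). Below the minimum, Sox2 had 13 and 13 reads, Nanog 11 and 7, Klf4 8 and 6, and Esrrb 0 and 17. All 41 summed to 479 and 576 reads.

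Markers of other cell types had few reads in both inputs, except for the endoderm and 2-cell-like genes. The 10 endoderm genes in the table summed to 244 and 256 reads. Of these 4 were members and 0 were past 2-fold (22.4% upward and 3.59% downward over the table). Those 4 were the basement membrane genes Col4a1 (1.58), Col4a2 (1.44), Sparc (1.34) and Lamc1 (1.16), which stem cell cultures also express. Mesoderm genes summed to 17 and 36 reads, and Eomes had 17 and 34 of them (0.694, interval 0.364 to 1.28). Ectoderm genes summed to 16 and 16 reads, trophectoderm genes to 15 and 13, fibroblast genes to 19 and 19 and interferon response genes to 25 and 20, with 0 members in these 4 groups. Of the fibroblast genes, Col1a1 had 16 and 4 reads (5.56, interval 1.79 to 22.8), Thy1 had 0 and 2 and Vim 3 and 0. The even fibroblast sum thus hides an uneven member, on few reads. The 2-cell-like genes summed to 264 and 378 reads, of which Usp17la, their 1 member, had 248 and 374 (0.921, and -0.55 after centring on the log2 scale).

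The highest ratios of the mRNA table rested on few reads. Bri3bp had 52 reads in the mutant input and 9 in the mock input, a ratio of 8.02 (3.92 to 18.5). Abcc9, a regulatory subunit of potassium channels, had 49 and 9 (7.56), and Il1f9, a cytokine of the interleukin-1 family, had 67 and 14 (6.65). Next came BC030476 with 97 and 21 reads (6.42), Gda, a guanine deaminase, with 41 and 9 (6.33), and Ep300, a histone acetyltransferase, with 44 and 10 (6.11). Phc1, a subunit of Polycomb repressive complex 1, had 58 and 14 reads (5.75), Mtfmt, which formylates mitochondrial initiator tRNA, had 45 and 11 (5.68), Pisd-ps3 had 83 and 20 (5.76) and Gm3002 had 41 and 10 (5.69). None of these had over 118 reads in all, and their intervals began between 2.81 and 3.97.

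The lowest ratios also came from shallow features. Gm13498, a transcribed pseudogene, had 4 reads in the mutant input and 62 in the mock input, a ratio of 0.0896 (0.0237 to 0.241). Zfp1 had 7 and 44 reads (0.221), Rps3, a protein of the small ribosomal subunit, had 10 and 60 (0.231, interval 0.106 to 0.456), and Cdk5rap2, a centrosomal protein, had 12 and 62 (0.269). Il6st, the gp130 receptor chain through which LIF signals, had 9 and 43 (0.291, interval 0.125 to 0.605). At 300 reads or more, the lowest of the mRNA table was Lepr, the leptin receptor, chosen after its values were seen, with 121 and 269 reads (0.625), 2-fold lower only after centring.

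**Figure D3:**
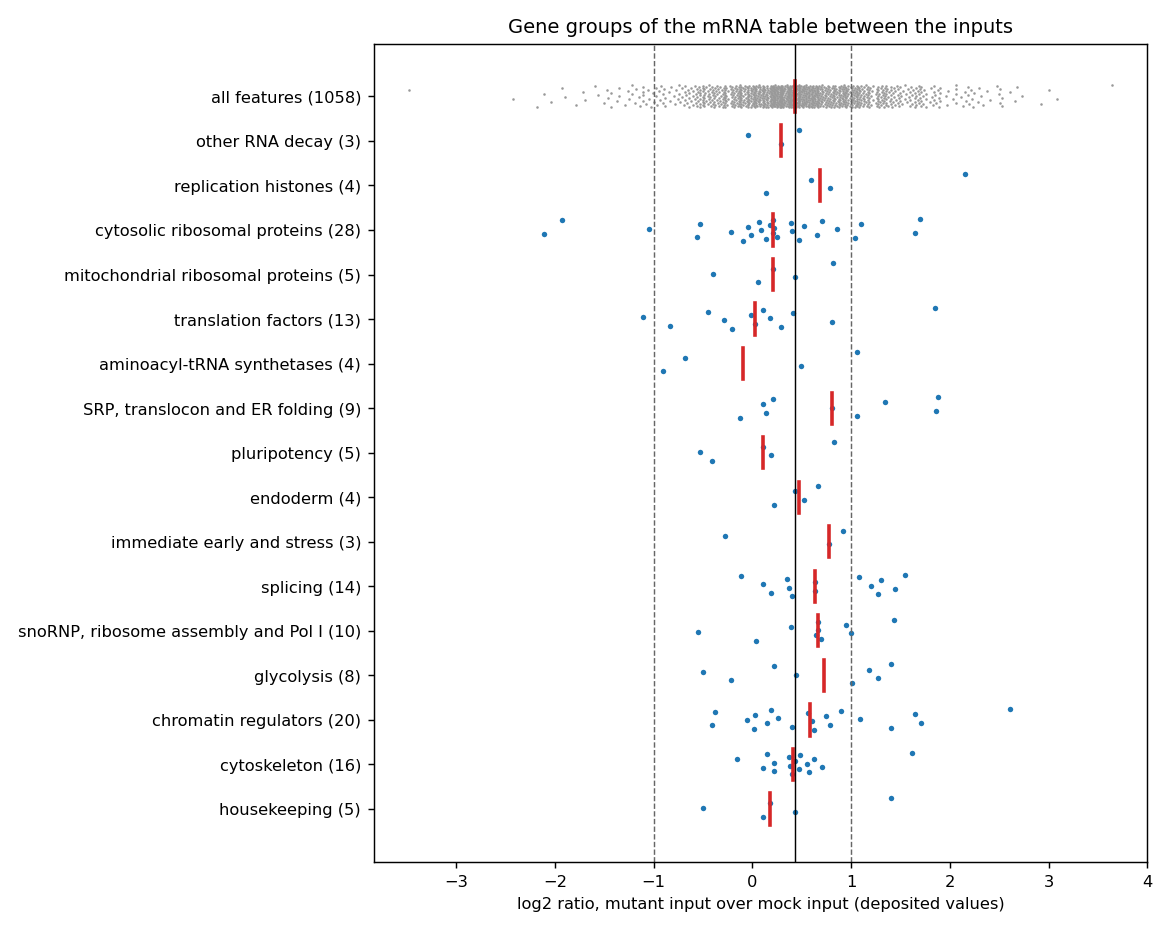
Log2 ratio of mutant over mock input (x axis, deposited values) for the members of each gene group of the mRNA table with at least 3 members, with their number in brackets. Red bars are group medians, the solid line is the median of all 1058 features and the dashed lines mark 2-fold. Translation factors and ribosomal proteins have medians of 0.03 and 0.21, below the line at 0.43, and the group of SRP, translocon and ER folding genes has the highest at 0.80.

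Genes of the translation machinery lay mostly below the median of the table. Of 85 cytosolic ribosomal protein genes 28 were members, 4 past 2-fold upward and 3 downward (22.4% and 3.59% over the table). Their median log2 ratio was 0.21, and 19 of 28 lay below the table's median. Those higher were Rpl13a with 63 and 27 reads (3.24), Rpl23a with 79 and 35 (3.13), Rps20 with 34 and 22 (2.15) and Rpl3 with 83 and 56 (2.06). Those lower were Rps3, Rpl27a and Rps24, the last with 15 and 43 reads (0.484). The members with most reads, Rps2 with 94 and 113 (1.16) and Rpl4 with 87 and 102 (1.18), were near the middle. Their sum over all 85 genes was 1926 reads in the mutant input and 2190 in the mock input.

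Translation factors had 13 of 70 as members, with a median of 0.03 and 11 of 13 below the table's median. Eef2 and Eef1a1, the elongation factors, had 159 and 195 reads (1.13) and 131 and 169 (1.08). Eif3b and Eif3d, subunits of initiation factor 3, had 33 and 82 reads (0.559) and 13 and 39 (0.463), while Eif3a of the same complex had 139 and 145 (1.33). Eef1b2 was the 1 member at least 2-fold higher, with 39 and 15 reads (3.61). Eif3d was the 1 at least 2-fold lower (22.4% and 3.59% over the table). The 5 mitochondrial ribosomal protein genes had 0 past 2-fold (22.4% upward and 3.59% downward over the table) and a median of 0.21. Aminoacyl-tRNA synthetases split, with Aars at 0.534, Eprs at 0.621 and Vars at 2.08 on 54 to 60 reads each. Lars2, a mitochondrial synthetase, had 102380 and 101393 reads and a ratio of 1.4. What the reads of Lars2 are was not tested.

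Genes of protein entry into the endoplasmic reticulum and folding there had the highest median of these groups. They had 9 of 47 as members, 4 past 2-fold upward and 0 downward (22.4% and 3.59% over the table), around a median of 0.80. Ssr1, a translocon-associated protein, had 61 and 23 reads (3.68), Pdia6, a disulfide isomerase, had 47 and 18 (3.63), Hspa5, the main chaperone of the compartment, had 64 and 35 (2.54) and Calr, a lectin chaperone, had 135 and 90 (2.08). Hsp90b1 with 92 and 116 reads (1.10) and Canx with 114 and 173 (0.915) did not share this. After centring 2 of 9 were past 2-fold upward and 0 downward (10.2% and 7.47% over the table). For the 3 members with at least 100 reads the median was 0.14.

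Splicing genes had 14 of 74 as members, 6 past 2-fold upward and 0 downward (22.4% and 3.59% over the table), around a median of 0.63. The 6 were Hnrnpa0 with 63 and 30 reads (2.92), Son with 45 and 23 (2.72), Sf3b3 with 39 and 22 (2.46), Hnrnpul2 with 40 and 23 (2.42), Luc7l2 with 38 and 23 (2.30) and Srrm2, a speckle scaffold, with 186 and 122 (2.12). Snrnp70, the U1 protein, had 169 and 218 reads (1.08). Chromatin regulators had 20 of 49 as members, 5 upward and 0 downward (22.4% and 3.59% over the table), an upward share near that of the table, around a median of 0.58. Besides Ep300 these were Arid1a with 40 and 17 reads (3.27), Ncor1 with 61 and 27 (3.14), Kmt2d with 101 and 53 (2.65) and Kdm5b with 55 and 36 (2.12). Chd4 with 152 and 143 (1.48) and Jarid2 with 107 and 98 (1.52) were near the median. After centring 2 splicing genes and 3 chromatin regulators were past 2-fold upward and 0 downward (10.2% and 7.47% over the table).

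Glycolytic genes had 8 of 15 as members, 4 higher, 0 lower (22.4% and 3.59% over the table) and a median of 0.72. Gapdh had 107 and 56 reads (2.65), Hk2 had 52 and 30 (2.41), Pgam1 had 36 and 22 (2.27) and Aldoa had 52 and 36 (2.01). Eno1 with 93 and 111 reads (1.16), Pkm with 113 and 183 (0.858) and Pgk1 with 25 and 49 (0.709) were lower than those. After centring 0 of 8 were past 2-fold (10.2% upward and 7.47% downward over the table). Genes of snoRNPs, ribosome assembly and RNA polymerase I had 10 of 38 as members, around a median of 0.66. Of these 1 was higher and 0 lower (22.4% and 3.59% over the table). The higher one was Rpp40 of RNase P with 37 and 19 reads (2.7). Dkc1, the pseudouridine synthase of H/ACA particles, had 82 and 57 reads, just under 2-fold, and Ncl, nucleolin, had 156 and 212 (1.02).

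Replication-dependent histone genes, whose mRNAs lack a poly(A) tail, had 4 of 61 as members, with a median of 0.69. Of these 1 was higher and 0 lower (22.4% and 3.59% over the table). Hist4h4 had 80 and 25 reads, a ratio of 4.44 (2.81 to 7.27), while the linker histone genes Hist1h1c, Hist1h1d and Hist1h1e gave 1.51, 1.72 and 1.10. Cytoskeletal genes had 16 of 34 as members, 1 upward and 0 downward (22.4% and 3.59% over the table), around a median of 0.41. Tubb5, a tubulin, had 42 and 19 reads (3.07), and the deeper Myh9 with 247 and 294 (1.17) and Dync1h1 with 168 and 177 (1.32) were near the median. Stress and immediate early genes had 3 of 27 as members with 0 past 2-fold (22.4% upward and 3.59% downward over the table). They were Hspa8 (1.88), Hsp90aa1 (1.72) and Hsp90ab1 (0.827). Psmd7 and Psmd3 of the proteasome gave 1.21 and 1.01. Housekeeping genes had 5 of 15 as members and a median of 0.18, among them Actb with 65 and 67 reads (1.35). Gapdh was the 1 at least 2-fold higher, and 0 were lower (22.4% and 3.59% over the table). Atp5b, the 1 member of the oxidative phosphorylation genes, had 27 and 49 reads (0.765).

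Shallow noncoding features also gave high ratios. Gm28652 had 73 reads in the mutant input and 11 in the mock input, a ratio of 9.22 (4.86 to 19.3), and Gm26493 had 99 and 15 (9.17). Gm26646 had 51 and 14 reads (5.06), RP23-370I17.3 had 45 and 13 (4.81), Gm22620 had 89 and 28 (4.41) and Gm23639 had 90 and 30 (4.17). Gm14565 was deeper, with 300 and 100 reads (4.17, interval 3.31 to 5.28). The 137 higher noncoding features had a median of 189 reads, 37 were classed as long noncoding RNA and 86 had no RefSeq match. The higher features of the mRNA table, 237 in number, had a median of 84 reads.

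The same features were set beside the IPs, in which mutant and mock cells gave 1 library each. Among members with at least 50 IP reads, 98 of 931 from the mRNA table (10.5%) were 2-fold or more up in the mutant IP and 28 (3.01%) down, and 180 of 869 noncoding ones (20.7%) were up and 3 (0.345%) down. Mutant input and mutant IP come from the same condition, and the IPs are no replicates of the inputs. Across features, Pearson's r between the log2 ratios was 0.05 in the mRNA table. In the noncoding table it was -0.30. Without the features that RefSeq classes as rRNA and the copies named as 5S, it was -0.11 over 823 features. These 823 still held Rn18s-rs5, Gm42418, Gm26917 and AY036118, and also Gm23647 and Gm24089, which have counts like the 5S copies. The features all come from the same 4 libraries, so these values are a description with no p-value.

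**Figure D4:**
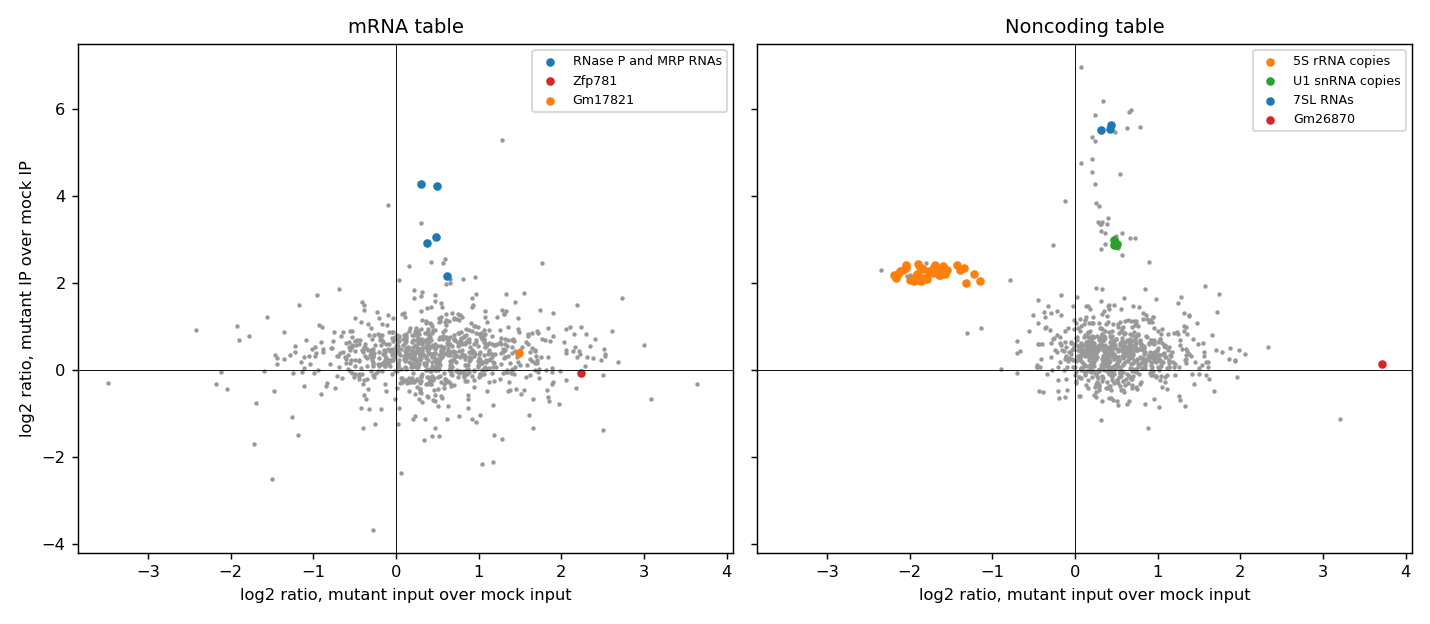
Log2 ratio of mutant over mock IP (y axis) against log2 ratio of mutant over mock input (x axis), deposited values, for features with at least 50 input reads and 50 IP reads, in the mRNA table (left, 931) and the noncoding table (right, 869). The 5S rRNA copies lie at the upper left, 7SL and U1 are high on the y axis near the median on the x axis, and Gm26870 is far to the right at a ratio of 1.11 between IPs.

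Of the mRNA-table features at least 2-fold higher between inputs, 19 of 210 were also at least 2-fold higher between IPs (9.05%, against 10.5% of all), and their median IP ratio was 1.29, as over all 931. Of the noncoding features, 10 of 114 were (8.77%, against 20.7%), with a median IP ratio of 1.25 against 1.37. Bri3bp had 147 and 91 reads in the IPs (1.5), and Zfp781 had 364 and 350 (0.963). The RNAs near 3-fold between inputs had IP ratios of 1.20 for Zfp488, 1.35 for A130077B15Rik and 1.38 for RP23-341H2.4. Most features higher between the inputs were thus within 2-fold between the IPs.

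The lower noncoding features were the reverse. Of 48 with at least 50 IP reads, 46 were at least 2-fold higher in the mutant IP (95.8%, against 20.7% of all) and the median IP ratio was 4.81. These 46 are the 44 features of the 5S class with Gm23647 and Gm24089, so the share describes in the main 1 RNA in many copies. BC028777 and 2010110E17Rik, the others with enough IP reads, gave 1.82 and 1.95. Rn5s had 837 reads (mutant) and 159 (mock) in the IPs, giving 4.87, against 34 and 161 in the inputs. The RNAs with the highest IP ratios among the structured RNAs, by contrast, had input ratios near the median. Rn7s1 gave 47.1 between IPs and 1.34 between inputs, Rmrp 19.5 and 1.19, and Rnu1a1 8.01 and 1.39. Rnu12, higher between inputs, was also higher between IPs, at 2.51 from 187 and 69 reads.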

How the data were processed

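The submitters' processing notes name Bowtie as aligner and mm9 as genome build. The version, the counter, the use of strand and the handling of multiply aligned reads were not stated in the sources consulted. The authors deposited signal values, not divided by length: 100% of them are whole reads, within 0.02 reads, divided by 1.8 for mutant and 2.5 for mock among the inputs, and by 2.7 for mutant and 2.5 for mock among the IPs. The meaning of these factors was not stated either. Reads were recovered with them, and ratios are plain ratios of deposited values.

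For each symbol the transcript with most input reads was used, after 26 date-like names had been restored. Features with at least 50 input reads were compared, called at 2-fold, with exact conditional binomial 95% intervals. The calculations used Python 3.11.15, pandas 2.3.3, NumPy 2.4.6 and SciPy 1.17.1 and were tested on simulated data. RefSeq symbols on GRCm38 matched 999 mRNA-table and 529 noncoding members and served for classes and sequences only. No coordinates were moved between builds.

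The members and gene lists were chosen with earlier results of these data known. Named features were Dis3l2; per table the 12 highest, 8 lowest and 10 with most reads; and per list the 5 with most reads and those past 2-fold. Others are said to have been chosen after their values were seen. Some features that this rule takes are not reported here. Alternatives covered scaling, pseudocount, read minimum, transcripts and intervals.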

Additional observations from a re-analysis of the deposited data

Results flagged for a closer look

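These results stood out because they were at least 2-fold apart one way between the inputs and at least 2-fold apart the other way between the IPs. Each pair of groups is 1 library a side, and the difference between the 2 contrasts was not tested. The 5S rRNA copies had a median log2 ratio of -1.77 between inputs while 37 of 37 were at least 2-fold higher in the mutant IP, and Rn5s itself had a ratio of 0.293 between inputs and 4.87 between IPs. Gm23647, with counts like those copies, gave 0.196 and 4.93. Rpl27a, a ribosomal protein gene and host of Snora3, gave 0.263 between inputs from 11 and 58 reads and 2.04 between IPs from 297 and 135. In the opposite direction, Gm28652 gave 9.22 between inputs and 0.463 between IPs, where it had 21 and 42 reads. Mtfmt gave 5.68 between inputs from 45 and 11 reads and 0.386 between IPs from 30 and 72. Ap1s3, a subunit of a clathrin adaptor complex, gave 2.28 between inputs from 307 and 187 reads and 0.355 between IPs from 23 and 60.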

How the results depend on the processing

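Counts past 2-fold are given as upward and downward, 237 and 38 for the mRNA table and 137 and 49 for the noncoding table as deposited. With the median set to 0 they were 108 and 79 in the mRNA table and 41 upward in the noncoding table. With equal read totals they were 89 and 110, and 37 upward. With equal totals of features up to 1% of reads they were 94 and 100, and 38 upward, and with unscaled reads 102 and 93, and 38 upward. Noncoding downward counts under these scalings were 58 or 59. A minimum of 20 reads gave 764 and 251 in the mRNA table and 240 and 88 in the noncoding table, 100 reads gave 92 and 0 in the mRNA table, and 300 reads gave 24 and 0, and 41 and 0. A minimum of 1 read with a pseudocount of 1 gave 3463 and 2038, and 747 and 356. A pseudocount of 1, every transcript and the interval rule kept each count within 1.5 times. Of 26 list medians 24 were above 0 as deposited, and 14 of these fell below 0 after centring. Of 118 named features past 2-fold upward 56 were so after centring, and of 48 downward 48. No paired analysis was possible because each group has 1 library and the labels give no replicate numbers, and no library could be left out. Depth limits both tables: of features with 50 to 99 reads, 62.3% (mRNA table) and 69.2% (noncoding) had an interval that held the table's median.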
